A study of Mus musculus with 28 samples.

Results

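The regions described here are stretches of H3K9me3 that depended on KAP1 but overlapped no called KAP1 region. They were the KAP1-dependent H3K9me3 regions of the deposited count tables that shared no base with any of the 26553 called KAP1 regions. The rule kept 4483 of 14445 KAP1-dependent regions, and the other 9962 shared 1 or more bases with one. KAP1 below the calling threshold cannot be seen by this rule, and 12 members lay within 20 bp of a KAP1 region. The members were between 1 and 573032 bp away from the nearest KAP1 region, at a median of 12990 bp. Hydroxymethylcytosine (5hmC) was measured by immunoprecipitation of the modified DNA followed by sequencing (hMeDIP-seq), and RNA by RNA-seq, in naive mouse embryonic stem cells (mESCs). All cells were labelled as the J1 line (strain 129S4/SvJae), grown with LIF and 2i, transduced with a lentiviral vector, selected with puromycin and collected 5 days later. The vector was either empty (shEmpty) or expressed a short hairpin RNA against *Kap1* (shKap1). RNA-seq covered wild-type cells (WT, 3 shEmpty and 3 shKap1 libraries), cells lacking *Dnmt1*, *Dnmt3a* and *Dnmt3b* (DNMT TKO, 3 and 3) and cells lacking *Tet1*, *Tet2* and *Tet3* (TET TKO, 2 and 2). The knockout cells came from other laboratories, so the genotype and the history of each line cannot be told apart. The study describes the RNA-seq replicates of all genotypes as independent experiments.

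KAP1, encoded by *Trim28*, is a corepressor brought to DNA by KRAB zinc finger proteins, most of which recognize transposable elements (TEs). It recruits SETDB1, which methylates histone H3 at lysine 9, and the mark can extend beyond the site where the complex sits. TET enzymes oxidize 5-methylcytosine to 5hmC, mostly at CpG sites, and DNMT enzymes place the methyl group. In mESCs this heterochromatin is best known for silencing endogenous retroviruses (ERVs) and young LINE-1 (L1) elements.

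Sequences of 2 members and of the upstream DNA of 2 genes that start inside members serve as examples (mm9, read from NCBIM37). The first had a strong rise of 5hmC and no annotated repeat (115 members had none), and its region held 37.6 CpG per kb, and the second is the middle of a member covered from end to end by L1Md_F2, the repeat that led the most members. The upstream DNA ends at the annotated starts of *Guca1b* and *Pxt1*, whose RNA is given further on. Capitals mark each CG.
Member without a repeat, chr13:3351851-3352150, plus strand: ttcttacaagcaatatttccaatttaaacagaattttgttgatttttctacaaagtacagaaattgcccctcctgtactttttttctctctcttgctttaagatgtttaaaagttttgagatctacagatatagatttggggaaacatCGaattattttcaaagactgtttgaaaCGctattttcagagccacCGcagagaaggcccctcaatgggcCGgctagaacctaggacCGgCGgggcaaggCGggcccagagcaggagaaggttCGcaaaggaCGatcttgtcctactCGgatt
L1Md_F2 member, chr6:56915050-56915349, minus strand: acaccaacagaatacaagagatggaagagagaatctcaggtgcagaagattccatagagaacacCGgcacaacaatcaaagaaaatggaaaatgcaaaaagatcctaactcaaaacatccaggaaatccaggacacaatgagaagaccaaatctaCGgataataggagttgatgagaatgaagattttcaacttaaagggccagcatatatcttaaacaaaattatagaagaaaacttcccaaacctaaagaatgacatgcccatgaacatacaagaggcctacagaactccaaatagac
*Guca1b* upstream, chr17:47522092-47522341, plus strand: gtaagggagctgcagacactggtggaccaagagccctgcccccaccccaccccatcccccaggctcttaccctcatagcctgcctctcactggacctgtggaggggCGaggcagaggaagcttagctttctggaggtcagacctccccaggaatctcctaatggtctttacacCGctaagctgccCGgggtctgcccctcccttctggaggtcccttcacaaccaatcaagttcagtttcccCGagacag
*Pxt1* upstream, chr17:29079208-29079457, minus strand: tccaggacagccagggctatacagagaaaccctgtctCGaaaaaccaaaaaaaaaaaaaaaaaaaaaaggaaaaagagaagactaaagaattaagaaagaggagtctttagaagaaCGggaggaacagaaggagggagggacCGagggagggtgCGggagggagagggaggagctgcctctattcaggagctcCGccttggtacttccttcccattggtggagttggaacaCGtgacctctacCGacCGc
The L1Md_F2 stretch held 2 CG in 300 bases, and the member without a repeat held 10 in 300 bases.

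The members were short and poor in CpG. Their median length was 1399 bp against 1999 bp for KAP1-dependent regions with a KAP1 region, and their median CpG density was 10.8 per kb against 21.8 per kb. The 572 KAP1-independent H3K9me3 regions had 13.0 CpG per kb. Of the members, 35.5% lay within 5 kb of a KAP1 region, 54.1% lay at least 10 kb away, and 89.3% lay within 100 kb. A gene body was overlapped by 24.8% of members, against 23.3% of the regions with KAP1. By the deposited region sets, 71 members (1.58%) carried H3K4me3, the mark of active promoters, and 128 (2.86%) carried H3K27me3, the Polycomb mark. By the peak lists of the single replicates these were 84 and 118 members for H3K4me3 and 237 (5.29%) and 259 (5.78%) for H3K27me3.

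Repeats covered 82.2% of the members' bases, but not the same repeats as at regions with KAP1. L1 covered 39.6% of member bases against 16.9%, and ERVK, the class of the IAP and ETn retroviruses, covered 23.5% against 60.1%. ERV1 covered 8.87% against 5.74%. A single L1 family, L1Md_F2, covered 13.9% of member bases (908 kb) and led 713 members, whereas IAPEz, which led 3409 of the regions with KAP1, led 132 members. MMERVK10C covered 5.37% of member bases, L1Md_T 4.67%, L1Md_F 3.97%, L1Md_F3 3.53%, L1Md_A 3.30% and MMERGLN 3.06%. The 208 members covered from end to end by L1Md_F2 had a median of 8.54 CpG per kb, while the 391 regions with KAP1 covered by L1Md_A had 37.0 per kb. In all, 882 members (19.7%) shared an integrant with a KAP1 region, that is, the same annotated copy also lay on a KAP1 region elsewhere along its length. No repeat was annotated in 115 members.

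**Figure D1:**
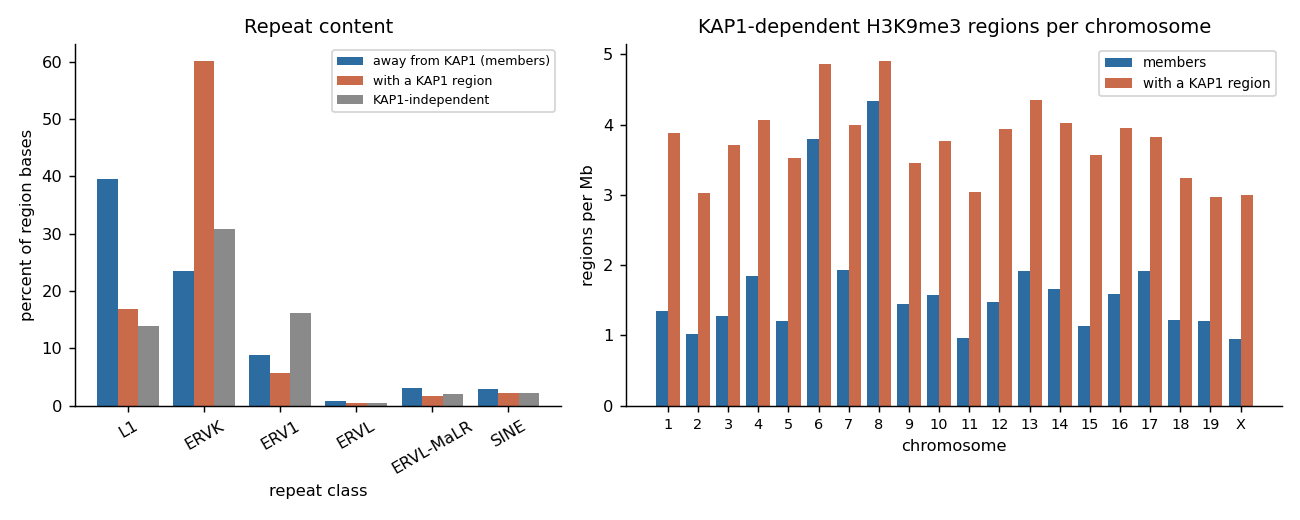
Left, percent of region bases (y axis) covered by each repeat class (x axis) in members, KAP1-dependent regions with a KAP1 region and KAP1-independent regions; members hold 39.6% L1 and 23.5% ERVK, and regions with KAP1 hold 16.9% and 60.1%. Right, regions per Mb (y axis) on each chromosome (x axis); members stand at 3.80 per Mb on chromosome 6 and 4.33 on chromosome 8, above the other chromosomes, while regions with KAP1 differ less.

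The hexamer TGCCGC, the core of the motif bound by the KRAB zinc finger protein ZFP57, was counted on both strands in regions of at least 1000 and under 1800 bp. It was present in 211 of 1821 members (11.6%), in 994 of 2827 regions with KAP1 (35.2%), in 9 of 80 KAP1-independent regions (11.25%) and in 25.7% of all H3K9me3 regions of this length. A match is a run of letters only, and the members of this length also had fewer CpG per kb (11.1 against 21.3).

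Members were unevenly spread over chromosomes. Chromosome 6 held 568 and chromosome 8 held 571, together 25.4% of all members, at 3.80 and 4.33 per Mb. The other autosomes and X held 0.948 to 1.93 per Mb. Regions with a KAP1 region rose less on these chromosomes, to 4.87 and 4.90 per Mb against 2.97 to 4.35 elsewhere. The density of KAP1 regions was 10.9 and 10.2 per Mb, within the range of the other chromosomes (8.27 to 11.5). Input reads on members of both chromosomes were at a median of 44.5 per kb, also within the range elsewhere (43.4 to 59.7). These are inputs of the hMeDIP libraries, whereas the regions were called in another dataset, whose inputs were not examined. On these chromosomes L1Md_F2 led 21.4% of members against 14.0% on the others, and the median distance to KAP1 was 19107 bp against 11274 bp. The part of these features in the density was not tested.

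The hMeDIP-seq result rests on 1 shEmpty and 1 shKap1 pair of 5hmC and input libraries in WT cells, with 4590132 to 8817570 reads over all 6 region sets, so its changes have no test. A region's level is the log2 ratio of 5hmC to input reads after adding 1 read to each and scaling each library to its reads over all region sets. Intervals of single regions cover the counting error of the 5hmC reads only. They hold the input ratio fixed, so they are too narrow where input reads are few. PCR reads without molecular identifiers are also not independent molecules. Another 4 hMeDIP libraries entered no main comparison and were read only as alternatives. Their labels and the names under which they were deposited give different antibodies or vectors. Read by label they turned the direction of the comparison with KAP1-bound regions (members minus such regions, 0.86), and read by deposited name they kept it (-0.86). Apart from the input filter, the change by label is by arithmetic the change by name with its sign turned. The opposite signs were therefore fixed in advance and are not separate outcomes. Shares of reads are given here of the reads summed over all region sets, which overlap, so that a read can count more than once. The share on KAP1-dependent regions with KAP1 was 12.5% and 11.4% in the shEmpty and shKap1 inputs of the first pair and 12.0% and 18.5% in its 5hmC libraries. By deposited name the second pair had 12.4% and 11.8% in the inputs and 10.7% and 20.0% in the 5hmC libraries, and by label 10.7% and 12.4% in the inputs and 20.0% and 11.8% in the 5hmC libraries. They were given no group, because the labels and the names conflict and the values may not decide between them. One further fact sets the scale: of the 5hmC reads over all region sets, a single region on chr9:3000001-3038399 took 35.9% in shEmpty and 22.5% in shKap1. Changes are therefore given with the median change of all 87884 regions, 0.46 on the log2 scale, which fell to 0.09 when that region was left out of the totals.

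5hmC on members changed less than at regions with KAP1. Of the 4483 members, 4439 had at least 10 input reads. Their median level was -0.37 in shEmpty and -0.18 in shKap1, and the median change was 0.23, which relative to the median of all regions is -0.23. Regions with a KAP1 region changed by a median of 0.81, and KAP1-independent regions by 0.18. The difference between members and regions with KAP1, -0.58, does not depend on the scale, whereas the sign of the members' own change does: it was -0.16 when libraries were scaled to H3K4me3 regions and -0.14 without the region on chromosome 9. A rise of at least 2-fold was seen at 728 members (16.4%), against 23.4% of all regions, and a fall of at least 2-fold at 187 members (4.21%), against 2.86% of all regions. All regions include the KAP1 regions, of which 33.6% rose, with a median change of 0.64. Of H3K4me3 regions 19.7% rose, with a median change of 0.39, and of H3K27me3 regions 9.5%, with 0.27. Members thus lay below all regions but above H3K27me3 regions in the share that rose.

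The change followed the distance to KAP1 in a step. Members within 500 bp of a KAP1 region had a median change of 0.52, those from 500 bp to 1 kb 0.49, those from 1 to 2 kb 0.49 and those from 2 to 5 kb 0.46, close to the median of all regions. From 5 to 10 kb the median was 0.17, from 10 to 50 kb 0.11, from 50 to 100 kb 0.07 and beyond 100 kb 0.07. The level in shEmpty ran the other way: it was -0.59 up to 5 kb and -0.16 beyond 50 kb, so distant members started with more 5hmC over input. In shKap1 the level was -0.13 up to 5 kb, -0.23 from 5 to 50 kb and -0.12 beyond 50 kb. Near and distant members thus ended at similar levels, and the contrast in change lay in the shEmpty level. Across 4439 members, Spearman's rho between distance and change was -0.22. Members that shared an integrant with a KAP1 region changed by 0.61. Members that shared none had a median change of 0.35 up to 5 kb (715 members), 0.12 from 5 to 50 kb and 0.07 beyond, each below the median of all regions (differences of -0.11, -0.33 and -0.39).

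**Figure D2:**
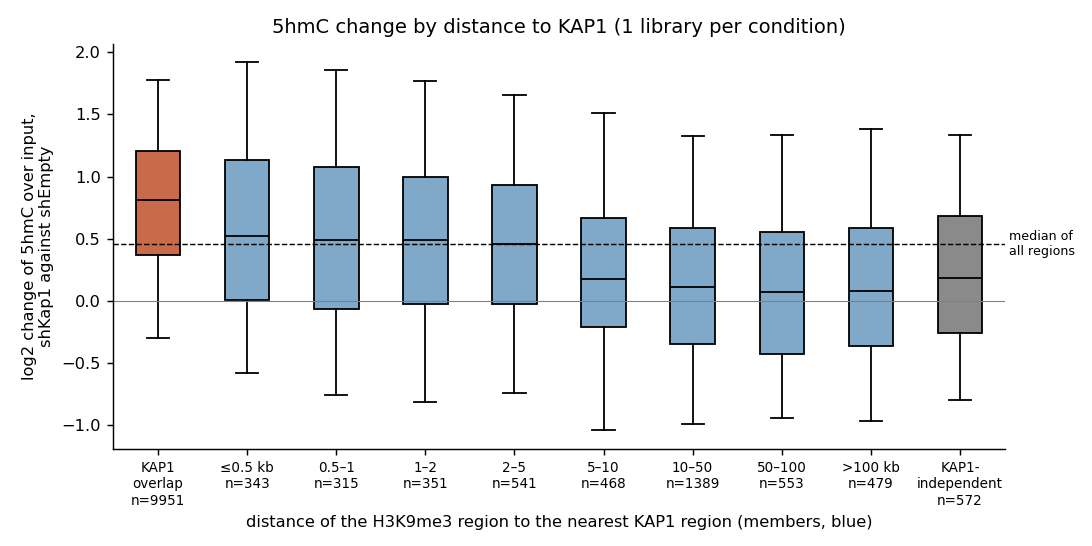
Log2 change of 5hmC over input on knockdown (y axis) for KAP1-dependent regions with a KAP1 region (red), members by distance to the nearest KAP1 region (blue, x axis) and KAP1-independent regions (grey); boxes span the quartiles, whiskers the 5th to 95th percentile of regions, and the dashed line is the median of all regions. Medians of members run from 0.52 within 500 bp to 0.07 beyond 100 kb, and regions with KAP1 lie at 0.81.

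The leading repeat separated the members further. Members led by L1 changed by a median of -0.03 (2026 members), those led by ERV1 by 0.38 (446) and those led by ERVK by 0.64 (1193). For several ERVK families the medians of members and of regions with a KAP1 region were close: MMERVK10C members changed by 0.72 and regions with KAP1 by 0.69, MMERVK9C by 0.92 and 0.97, MMERVK9E by 0.85 and 0.84, and RLTR10 by 0.54 and 0.53. A member of these families can lie on a copy that also holds a KAP1 region elsewhere, and the family medians were not split by this. IAPEz members changed by 0.70, against 1.01 with KAP1, and ETnERV members by 0.70, against 1.02. For most of the L1 families listed here the medians were farther apart. L1Md_A members changed by 0.10 against 0.96, L1Md_T by 0.01 against 0.47, L1Md_F2 by -0.07 against 0.37 and L1Md_F3 by -0.19 against 0.07, where the intervals of the medians overlapped. RLTR6, an ERV1 family, was the reverse, with 0.75 on members and 0.32 with KAP1.

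**Figure D3:**
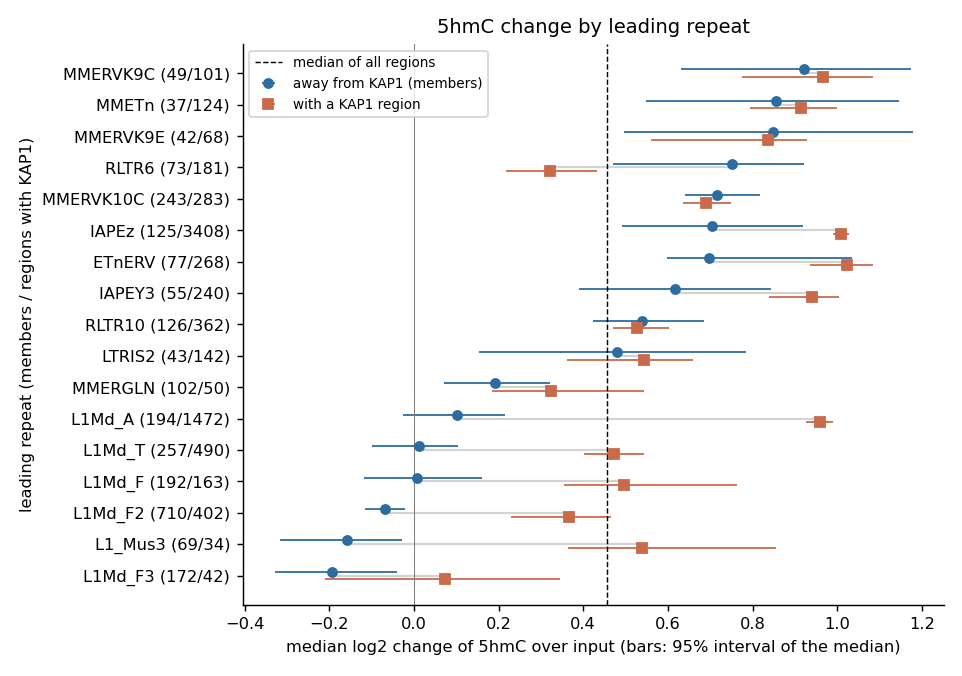
Median log2 change of 5hmC over input (x axis) by leading repeat (y axis) for members (blue circles) and regions with a KAP1 region (red squares); numbers in brackets are members and regions with KAP1, and bars are 95% intervals of the median over regions, which are not replicates. L1Md_A shows the widest gap, 0.10 against 0.96, while MMERVK10C, at 0.72 and 0.69, overlaps.

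CpG density also went with the change. In the lowest quartile of members (up to 6.88 CpG per kb) the median change was 0.03, and it was 0.06, 0.28 and 0.50 in the next quartiles, with a boundary of 17.0 per kb for the highest. Spearman's rho was 0.24 for the change and 0.39 for the level in shEmpty, over 4439 members that share the same libraries. In regions with KAP1 sorted by the same boundaries, the medians were 0.38, 0.46, 0.58 and 0.91, higher in each quartile. Members on chromosomes 6 and 8 changed by a median of 0.07, against 0.28 on the other chromosomes.

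Single members show the spread. The member with the strongest rise among those with at least 30 input reads, chr16:8556801-8557599, lay in an intron of *Abat*, the GABA-degrading aminotransferase, on an MMERVK9E copy, 1065 bp from KAP1. It had 3 and 38 5hmC reads in shEmpty and shKap1 on 21 and 12 input reads, a change of 4.38 (counting interval 3.10 to 7.10). The member without a repeat shown above, chr13:3351801-3352199, 343 bp from KAP1, had 3 and 50 5hmC reads on 15 and 19 input reads, a change of 3.69. Other large rises were less sure: chr15:63444801-63444999, at 3.57, had 3 and 6 5hmC reads, and chr14:86133001-86133199, a (TTTC)n repeat, had 7359 input reads in shEmpty but 474 in shKap1.

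The 4 members with the largest falls were all led by L1Md_F or L1Md_F2. In chr6:26177401-26178799, covered by L1Md_F2 and 18604 bp from KAP1, 5hmC reads went from 63 to 24 while input reads went from 17 to 36, a change of -2.06 (counting interval -2.84 to -1.40). The others lay at chr15:22297801-22299599 (-2.01), in *Cntnap5b* at chr1:102300001-102300999 (-1.96) and at chr16:42214801-42215599 (-1.95). Their distances to KAP1 ranged from 835 to 210895 bp.

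The 3 members nearest to KAP1 lay below the lower quartile of the members close to it. At 1, 4 and 5 bp from a KAP1 region, chr3:144601401-144602399, chr10:125479001-125480399 and chr6:4315801-4317399 changed by -0.06, -0.05 and -0.31, against a lower quartile of 0.0056 and a median of 0.52 for members up to 500 bp from KAP1 and a median of 0.46 for all regions. Their counting intervals reached up to 0.49, 0.54 and 0.34. These leave out the counting error of the input reads, which were 13 and 30, 26 and 35, and 20 and 49 in shEmpty and shKap1. Just on the other side of the rule, 3 regions that overlapped KAP1 by 1, 1 and 3 bp changed by 1.11, 0.27 and 0.77. The 3 members farthest from KAP1, at 546180 to 573032 bp, changed by -0.84, 0.09 and -0.01. The longest member, chr4:145657201-145679399 (22199 bp), changed by 0.18, and the next longest, also on chromosome 4 over predicted genes, by 0.38 and 0.54.

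RNA of TE integrants was counted per merged copy, with library sizes taken from the genes (18108431 to 29373696 reads in genes per library, 898152 to 1803819 in integrants). The study kept only uniquely mapped RNA-seq reads, so copies with near-identical relatives can be undercounted. The knockdown took *Trim28* from 1752 ± 207 to 165 ± 21.9 CPM, that is, reads scaled to the gene reads of the library, in WT (SD, n = 3), from 1868 to 427 in DNMT TKO and from 1835 to 166 in TET TKO, so DNMT TKO cells kept more. Calls required 2-fold and an adjusted p below 0.05 in edgeR's quasi-likelihood test with Benjamini-Hochberg adjustment over all features. In bulk RNA, fewer cells of a type and less RNA per cell cannot be told apart.

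Integrants on members rose in many cases when KAP1 was depleted. Members overlapped 8805 integrants, of which 1972 had at least 16 reads over the 16 libraries. An integrant read in knockdown libraries alone enters this group only by being high there, so the counts describe the integrants with reads and not all of them. In WT, 777 of the 1972 rose (39.4%), against 12.1% of all integrants tested, and 23 fell (1.17%), against 2.05%. With no filter beyond 1 read the falls stood above the background in each genotype instead (0.36% against 0.212% in WT, 0.233% against 0.0904% in DNMT TKO and 0.212% against 0.0815% in TET TKO). In DNMT TKO, 1001 rose (50.8%, background 15.0%) and 14 fell (background 0.944%), and in TET TKO 836 rose (42.4%, background 14.7%) and 14 fell (background 0.971%; 8 of 1878 without TET TKO shKap1 replicate 1). Integrants on the other H3K9me3 regions rose more often in WT, 4252 of 7673 (55.4%) on KAP1-dependent regions with a KAP1 region and 215 of 430 (50%) on KAP1-independent regions, although 1 integrant can lie on several kinds of region and the differences were not tested. The median log2 change in WT was 1.51 with integrants unread in one condition placed at their bound, against 0.22 for all integrants tested.

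Integrants that also lay on a KAP1 region held fewer of the rises, but rose more often and gained more summed RNA. Of the 1396 integrants that lay on no KAP1 region, 399 rose in WT (28.6%), against 12.1% of all integrants tested. Of those also on a KAP1 region, 378 of 576 rose (65.6%). Their summed level went from 168 ± 9.82 to 1539 ± 128 CPM in WT, and that of the integrants on no KAP1 region from 1155 ± 65.5 to 2115 ± 34.2 CPM (SD, n = 3 each). The shKap1 libraries lay above all shEmpty libraries in both sets and in every genotype. By distance of the member from KAP1, the share that rose was 53.5% within 500 bp, 63.3% from 500 bp to 1 kb, 55.4% from 1 to 2 kb, 51.1% from 2 to 5 kb and 33.1% from 5 to 10 kb, and it was 23.4%, 25.95% and 23.1% in the bins beyond 10 kb. In DNMT TKO the bins beyond 10 kb stood at 39.1%, 42.7% and 40.5%.

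**Figure D4:**
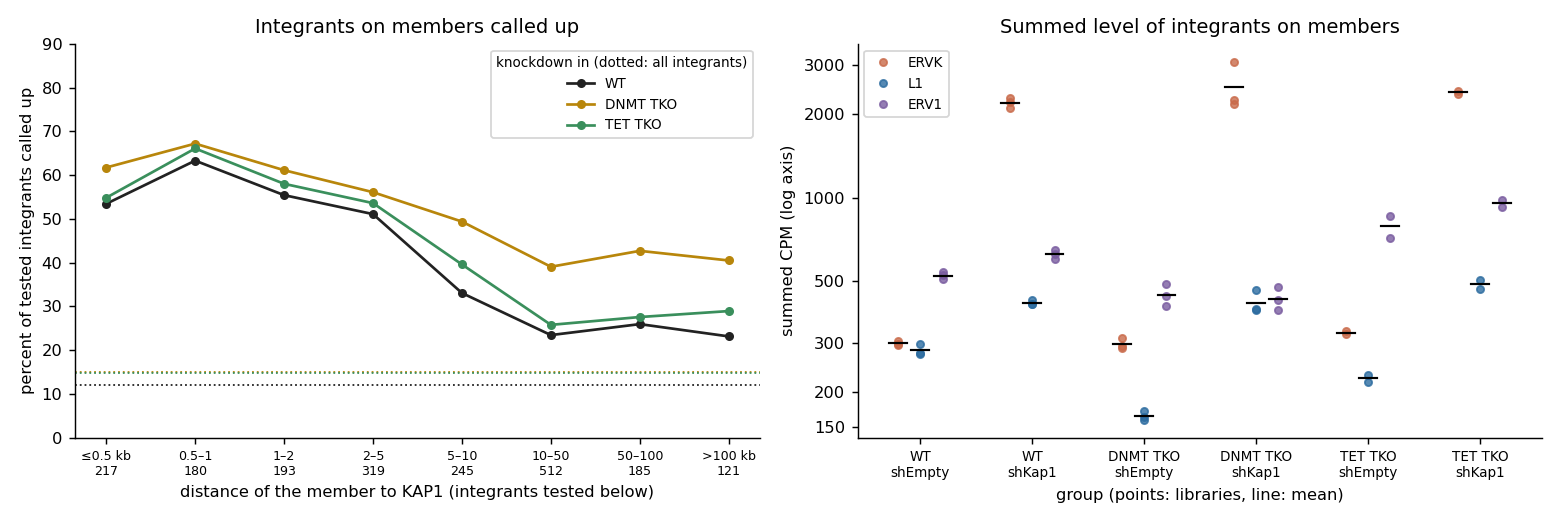
Left, percent of tested integrants on members called up on knockdown (y axis) by distance of the member to KAP1 (x axis, integrants tested below each bin) in WT, DNMT TKO and TET TKO, with the share of all integrants dotted; WT falls from 63.3% to 23.1%, and DNMT TKO stays at 39.1% or more. Right, summed CPM (y axis, log) of ERVK, L1 and ERV1 integrants on members in each library (points) and group mean (lines); ERVK rises in every genotype and ERV1 in DNMT TKO overlaps.

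ERVK integrants carried most of the RNA gained. In WT their summed level was 305, 298 and 296 CPM in shEmpty and 2098, 2275 and 2209 CPM in shKap1. The groups were far apart, and so they were in DNMT TKO (298 ± 12.7 to 2498 ± 504 CPM) and TET TKO (326 to 2393 CPM). Of 756 ERVK integrants tested, 499 rose in WT (66.0%), against 43.1% of all ERVK integrants. The 756 include integrants that also lay on a KAP1 region, so this share is not one of copies away from KAP1. MMERVK10C rose at 173 of 191 (90.6%), and at 58 of the 65 that lay on no KAP1 region. IAPEz rose at 97 of 112, MMERVK9E at 22 of 28, MMETn at 39 of 52, ETnERV at 50 of 72 and MMERVK9C at 20 of 31. IAPEY3 rose at 10 of 24, near the class share, and RLTR10 at 9 of 40, below it. The share of each family over all integrants was not computed. These counts thus do not set members apart from other copies of their family.

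Fewer L1 than ERVK integrants rose. Of 784 tested, 144 rose in WT (18.4%, against 14.7% of all L1), 333 in DNMT TKO (42.5%, against 29.1%) and 184 in TET TKO (23.5%, against 21.6%). The difference of knockdown effect between DNMT TKO and WT was itself called at 51 of the 784 (6.51%, against 4.79% of all L1). At 50 of them the change was more positive in DNMT TKO. The summed L1 level was 282 ± 13.4 CPM in WT shEmpty and 419 ± 8.73 CPM in WT shKap1. In shEmpty it was lower in DNMT TKO (164 ± 6.33 CPM) and in TET TKO (224 CPM), and the 3 genotypes did not overlap, whereas under shKap1 DNMT TKO reached 419 ± 39.9 CPM. L1Md_F2 rose at 35 of 197 in WT and 67 of 197 in DNMT TKO, L1Md_A at 22 and 58 of 113, and L1_Mus1 at 11 and 13 of 30. The shares of these families over all integrants were not computed, and those of L1Md_F2 lay near the class shares.

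Among the L1 families, L1Md_T rose at 33 of 225 in WT (14.7%), near the share of all L1 (14.7%), at 121 in DNMT TKO (53.8%, against 29.1%) and at 45 in TET TKO (20%, against 21.6%). The difference of knockdown effect between DNMT TKO and WT was itself called, with a more positive change in DNMT TKO, at 34 of the 225 (15.1%). This compares with 1.33% of all integrants and 4.41% of all L1. In shEmpty, 76 of the 225 were lower in DNMT TKO than in WT (33.8%), against 6.45% of all integrants and 15.5% of all L1, and 31 were lower in TET TKO (13.8%, against 2.33% of all integrants and 5.95% of all L1). Both comparisons with WT share the shEmpty libraries, and a lower level there enters the knockdown effect as well.

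ERV1 integrants rose above their class share in each genotype, but their summed level did not rise in DNMT TKO. Of 208 tested, 75 rose in WT (36.1%, against 26.9% of all ERV1), 63 in DNMT TKO (30.3%, against 24.2%) and 74 in TET TKO (35.6%, against 24.55%). Their summed level rose from 524 ± 14.8 to 624 ± 24.8 CPM in WT and from 788 to 956 CPM in TET TKO, but it was 447 ± 40.3 and 432 ± 41.5 CPM in DNMT TKO, where the groups overlapped. RLTR6, an ERV1 family, rose on knockdown in WT at 25 of 36. In shEmpty, 59 of the 208 ERV1 integrants were higher in DNMT TKO than in WT (28.4%), against 3.48% of all integrants and 11.7% of all ERV1. MMERGLN, also of ERV1, was higher at 26 of 58. The shares of RLTR6 and MMERGLN over all integrants were not computed. Members led by MMERGLN were also among those with high 5hmC in shEmpty (median level 0.35). Those led by L1Md_T (0.43), RLTR10 (0.54) and B1_Mus1 (1.03) stood higher. A link between this level and the RNA was not tested.

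Over all integrants on members, the difference of knockdown effect was called at 137 of 1972 for DNMT TKO (6.95%, background 1.80%) and at 72 for TET TKO (3.65%, background 1.07%). Without TET TKO shEmpty replicate 1 or 2, the latter was 39 of 1947 (2.00%) or 42 of 1941 (2.16%). These differences are given by sign and not by size of effect. For DNMT TKO, 93 were positive (background 1.33%) and 44 negative (background 0.473%). For TET TKO, 45 were positive (background 0.831%) and 27 negative (background 0.242%). In shEmpty, 391 differed between DNMT TKO and WT, 176 higher and 215 lower (background 3.48% higher and 6.45% lower), and 201 differed between TET TKO and WT, 87 higher and 114 lower (background 1.74% higher and 2.33% lower). Without TET TKO shEmpty replicate 1 or 2, the latter total was 129 (6.63%) or 121 (6.23%) instead of 10.2%.

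The integrants with the largest rises, taken from those called and not overlapping between WT groups, had 0 reads in all 3 WT shEmpty libraries. Being called was part of the rule of choice, so their adjusted p-values are no further support. For WT these rest on the shKap1 reads and on the spread estimated in the fit over all 16 libraries. The IAPEz copy at chr14:125083657-125091035, between genes, had 6.13, 11.4 and 14.1 CPM in WT shKap1, at least 263-fold higher than the 3-read floor over the group (edgeR adjusted p = 8.74e-06). The IAPEY3 copy at chr11:50957219-50965457 had 5.61, 7.45 and 7.25 CPM, at least 169-fold higher (adjusted p = 2.14e-122). The MMERVK10C copy at chr12:18787734-18794811 had 4.72, 6.76 and 5.44 CPM, at least 142-fold higher (adjusted p = 2.33e-80). These 3 also lay on a KAP1 region, as did IAPEz copies in an intron of *Fras1* (chr5:96914519-96919707, at least 109-fold) and at chr13:52080852-52086113 (at least 98.5-fold). The sixth, an IAPLTR4 copy at chr17:18695178-18703534, lay on none, 17884 bp from KAP1 by its member, and had 3.88, 3.29 and 3.89 CPM, at least 90.7-fold higher (adjusted p = 4.73e-60). Their members' 5hmC changes ranged from 0.33 to 1.46.

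Falls were few. A RLTR1B copy at chr1:92524342-92525201 fell from 8.55, 5.80 and 5.45 to 0.210, 0.217 and 0.0533 CPM (log2 change -5.28 ± 0.32 SE, adjusted p = 4.25e-58), and its neighbour, RMER16 at chr1:92523066-92523994, fell by 4.65 on the log2 scale. A MYSERV copy at chr1:21244215-21244730, in an intron of *Gsta3* on the opposite strand, had 0.666, 0.818 and 0.672 CPM in shEmpty and 0, 0 and 0.107 CPM in shKap1. None of the 3 lay on a KAP1 region.

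Genes next to members were tested in the same way. The members had 3140 nearest genes, of which 1643 had at least 16 reads. As with the integrants, a gene read in knockdown libraries alone enters this group only by being high there. In WT, 360 rose (21.9%), against 10.8% of all genes, and 86 fell (5.23%, background 6.54%). In DNMT TKO, 343 rose (20.9%, background 10.1%) and 28 fell (background 2.41%), and in TET TKO 286 rose (17.4%, background 8.05%) and 56 fell (background 4.46%). Genes nearest to regions with KAP1 gave 694 rises of 3161 (22.0%), and of the 700 genes nearest to a member but not to such a region, 136 rose (19.4%). The share was 22.7% where the member overlapped the gene, 22.1% up to 10 kb, 23.9% from 10 to 50 kb and 16.2% beyond. By distance of the member from KAP1, 23.8% rose up to 5 kb, 23.7% from 5 to 50 kb and 15.75% beyond 50 kb.

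The genes with the largest rises, taken like the integrants, were barely read in WT shEmpty. Here too, a call was part of the rule of choice, and the adjusted p-values are no further support. Intervals of RNA ratios, here and below, cover the counting error of reads pooled over each group. They leave out the spread between libraries. *Mmp10*, a secreted matrix metalloprotease, had 0, 0 and 0.0354 CPM in shEmpty and 10.8, 11.1 and 11.9 CPM in shKap1, a ratio of 837 (interval 150 to 33124, from 1 shEmpty read; adjusted p = 1.61e-09). Its member, an MMETn copy 2953 bp away, changed by 1.55 in 5hmC. *Abp1*, a diamine oxidase, had 0, 0.0712 and 0.0354 against 9.59, 13.4 and 14.6 CPM, a ratio of 312 (interval 106 to 1515). *Naip6*, of the NAIP family of bacterial sensors, went from 0.111, 0.178 and 0.319 to 14.2, 18.9 and 18.2 CPM (log2 change 6.28 ± 0.26 SE, adjusted p = 4.88e-12), with an L1Md_F2 member inside the gene 36329 bp from KAP1. It was the only one of the 8 that was not also nearest to a region with KAP1.

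*2810429I04Rik* rose from 0.111, 0.249 and 0.177 to 35.2, 34.8 and 36.4 CPM (log2 change 7.52 ± 0.25, adjusted p = 4.53e-13). In TET TKO shEmpty it already stood at 11.5 and 11.7 CPM. *Sult2a4*, a sulfotransferase, and *Cyp4a12b*, a fatty acid hydroxylase, had no reads in WT shEmpty and rose at least 28.9-fold and at least 26.9-fold, and the lectin genes *Clec4b2* (at least 18.7-fold) and *Clec2g* (ratio 57.8, interval 19.4 to 284) completed the list. *Cyp4a12b*, *Sult2a4*, *Naip6* and both lectins have close paralogs, so their counts are uncertain where reads could be split.

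**Figure D5:**
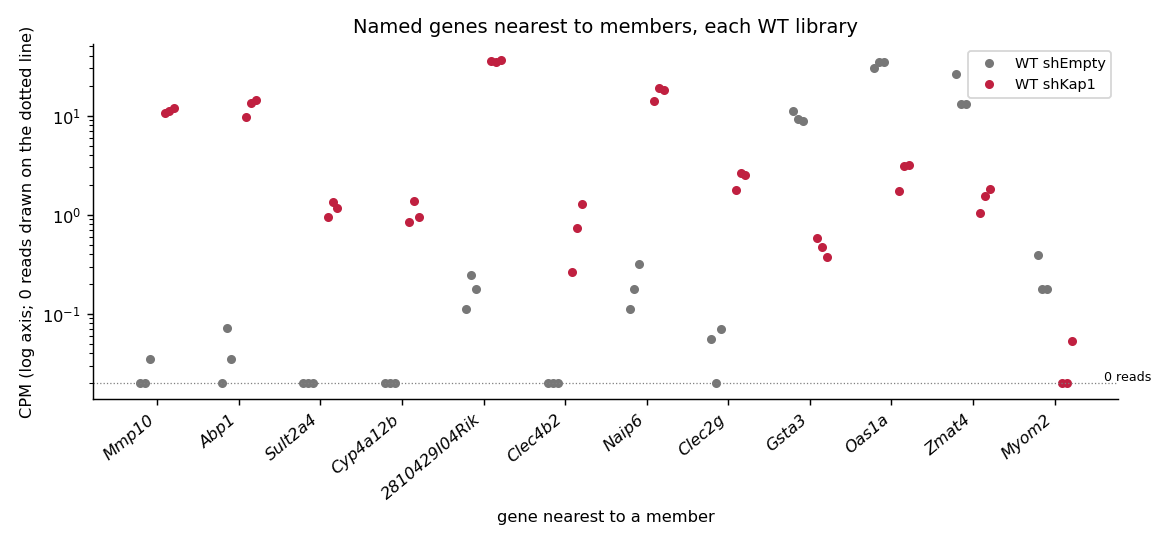
CPM in each WT library (y axis, log, 0 reads on the dotted line) of the 12 named genes nearest to members (x axis), shEmpty in grey and shKap1 in red. The groups are apart for every gene, as the rule of choice required; Mmp10 stands at 10.8 to 11.9 CPM in shKap1 and Gsta3 falls from 11.2, 9.32 and 8.81 CPM to below 1 CPM.

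Of the falls, *Gsta3*, a glutathione S-transferase, went from 11.2, 9.32 and 8.81 to 0.577, 0.476 and 0.373 CPM (log2 change -4.34 ± 0.18 SE, adjusted p = 6.04e-12). Its member is the one that overlaps the MYSERV copy described above. *Oas1a*, an interferon-induced oligoadenylate synthetase, went from 30.4, 35.0 and 34.7 to 1.73, 3.118 and 3.198 CPM (log2 change -3.63 ± 0.24, adjusted p = 3.26e-08). *Zmat4* fell by 3.55 on the log2 scale. *Myom2*, a sarcomere gene, had 17 reads in shEmpty and 1 in shKap1, and its call was lost without WT shKap1 replicate 2 (adjusted p = 0.0595).

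Some genes start inside a member, where H3K9me3 sat on the start itself. There were 65 such genes, 31 had enough reads, and 15 of these rose in WT (48.4%), against 10.8% of all genes and 21.9% of the genes nearest to members. A gene barely read without the knockdown passes the filter only by its knockdown reads. The share thus describes the 31 and not all genes that start inside a member. *Guca1b*, an activator of photoreceptor guanylate cyclase, had 0.0555, 0 and 0.0354 CPM in shEmpty and 0.734, 0.823 and 0.906 CPM in shKap1, a ratio of 30.5 (interval 8.02 to 259; adjusted p = 7.31e-06). All shKap1 libraries lay above the shEmpty libraries. The member over its start lay 34472 bp from KAP1 and changed by 1.25 in 5hmC. *Pxt1*, a testis gene, went from 0.111, 0.0712 and 0.0354 to 0.839, 1.34 and 1.39 CPM (log2 change 4.04 ± 0.44 SE, adjusted p = 7.10e-07), and its member changed by 0.18. The upstream sequences printed above hold 4 and 8 CG in 250 bases. *Gm9573*, *Gm11331* and *SNORD93* were read at under 1 CPM in WT shKap1, and *SNORD93*, with 6 reads, lost its call under DESeq2 and without any one of the 6 WT libraries (adjusted p from 0.0571 to 0.0808).

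The knockdown effect differed between genotypes at more of the nearest genes than in the background: 169 of 1643 for DNMT TKO (10.3%, background 7.14%) and 110 for TET TKO (6.70%, background 4.21%). For DNMT TKO, 87 differences were positive (background 4.66%) and 82 negative (background 2.48%). For TET TKO, 46 were positive (background 2.08%) and 64 negative (background 2.13%). A positive difference can be a fall in WT that was absent in the knockout cells. *Snx20*, a sorting nexin gene with a member inside it, had 5.16, 5.48 and 5.31 CPM in WT shEmpty and 0.944, 0.563 and 0.960 CPM in WT shKap1, but 11.5, 9.98 and 9.02 against 11.8, 11.8 and 12.1 CPM in DNMT TKO. The groups overlapped in neither WT nor DNMT TKO, yet the WT change was -2.71 and that in DNMT TKO 0.23 (difference 2.94 ± 0.24 SE, adjusted p = 1.65e-07). *Pdzk1*, a scaffold of membrane transporters, fell in WT by 2.75 and stood at -0.05 in DNMT TKO (difference 2.70, adjusted p = 0.000134).

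*Gm14443*, 3757 bp from an MMERVK10C member, was high in both knockout genotypes before the knockdown. It had 0.444, 0.178 and 0.566 CPM in WT shEmpty and 8.44, 8.57 and 8.74 CPM in WT shKap1, but 36.7 to 40.1 CPM in DNMT TKO shEmpty and 32.1 and 35.1 CPM in TET TKO shEmpty. Its knockdown change was 4.44 in WT, -0.18 in DNMT TKO and -0.34 in TET TKO, and both differences were called (-4.62 ± 0.22 and -4.78 ± 0.24 SE; adjusted p = 2.91e-10 and 1.05e-09). In shEmpty, 232 nearest genes were higher (background 8.23%) and 126 lower (background 8.05%) in DNMT TKO than in WT, and 140 were higher (background 5.66%) and 98 lower (background 4.8%) in TET TKO.

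Values of the genes that build or read H3K9 methylation stand beside these results. Of 31 tested, *Suv39h1*, an H3K9 methyltransferase gene, rose in WT by 1.21 and *Zfp809*, a KRAB zinc finger gene that recruits KAP1 to proviruses, by 1.53 on the log2 scale, and *Trim28* fell by 3.41. *Setdb1* changed by -0.29. In DNMT TKO and TET TKO, *Trim28* was the 1 gene called. Changes under 2-fold at an adjusted p below 0.05 went both ways. For example, *Uhrf1*, whose protein binds hemimethylated DNA, fell by 0.99 in WT, 0.73 in DNMT TKO and 0.60 in TET TKO. *Pphln1* rose by 0.70, 0.58 and 0.34. The defining genes of naive mESCs were present, with *Pou5f1* at 838 CPM in WT shEmpty and 773 CPM in WT shKap1, but *Sox2*, *Klf4*, *Tbx3* and *Dppa5a*, 4 of 10, fell in WT. Of the same 10, 1 fell in DNMT TKO and 1 in TET TKO. All 8 tested genes of the 2-cell-like state, such as *Zscan4c* (6.13 to 61.4 CPM) and *Tdpoz3*, rose in WT, and their summed level went from 21.3 to 38.0 up to 264 to 297 CPM. In DNMT TKO the sum went from 10.46 to 35.08 up to 89.29 to 211 CPM, and in TET TKO from 17.0 to 20.6 up to 824 to 844 CPM. The summed level of 7 fibroblast, 6 primitive endoderm and 6 trophoblast markers stayed at 28.0 CPM or less in every library, but single markers moved with the knockdown. In WT, 2 of the fibroblast markers rose and 1 fell, 1 of the primitive endoderm markers rose (*Sox17*, by 2.21 on the log2 scale) and 1 fell, and 3 of the trophoblast markers rose (*Krt7*, *Hand1* and *Gata3*) and 1 fell. In DNMT TKO, 1 of each list rose and *Cdx2* of the trophoblast markers fell, and in TET TKO *Krt7* rose and 2 fibroblast markers fell. Their part in the RNA of members was not tested.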

How the data were processed

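The authors deposited hMeDIP reads as raw counts over 6 region sets and RNA-seq reads as raw counts per gene and per TE integrant (mm9); TE counts used copies in which ERV internal parts had been merged with their LTRs. The submitters' processing notes name HISAT2 2.0.1, featureCounts 1.5.1, bedtools 2.25, Bowtie2 2.2.1, MACS 1.4 and SICER 1.1. KAP1 and H3K9me3 regions came from another dataset, and their deposited coordinates were used. H3K4me3 and H3K27me3 peak lists, called by the authors for each replicate, hold a score per peak, of which positions alone were used.

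Members were found with bedtools 2.31.1 (1 bp overlap or more removes a region). The 5hmC level used a pseudocount of 1 read and at least 10 input reads. RNA was fitted in edgeR 4.0.16 (R 4.3.3) with 1 quasi-likelihood fit over all 16 libraries for genes and another for integrants, TMM factors and library sizes from genes, features with at least 16 reads in total, a 2-fold and an adjusted p threshold of 0.05 (Benjamini-Hochberg). The step was tested on simulated data. Gene symbols were found for 37205 of 37991 IDs. Alternatives were voom (limma 3.58.1), DESeq2 1.42.0, other scalings and filters, a replicate block and leaving out each library. Leaving out chromosomes 6 and 8, and keeping apart integrants or genes shared with KAP1 regions, were added after seeing the data. Members and lists were chosen with earlier results of these data known.

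Replicate numbers were checked for pairing by correlating same-numbered deviations from group means: over genes they ran from 0.112 to 0.587 within and between WT and DNMT TKO groups, and from -0.0726 to 0.0476 with TET TKO groups. Over integrants they were weaker, from -0.0224 to 0.340 and from -0.0634 to 0.0138. The 4 hMeDIP libraries of replicate 2 were left unassigned.

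Named integrants had at least 200 reads, a call in WT and no overlap between WT groups (6 largest rises, 3 largest falls), and named nearest genes at least 500 reads (8 and 4). For each difference of effect, 2 genes within 10 kb and 2 integrants per direction were taken, with 5 genes that start inside a member. Named regions had at least 30 input reads (4 rises, 4 falls), beside the 3 longest, 3 farthest, 3 nearest and the one with most input reads. Results that need some repeat sequences are not reported here.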

Additional observations from a re-analysis of the deposited data

Results flagged for a closer look

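Beside members, the knockdown effect differed from WT by edgeR's test of the difference itself at the following genes and integrants, 2 per direction, given as log2 differences. A positive difference is a more positive change than in WT, and can be a fall in WT that was absent in the knockout cells. Where a group has no reads the fitted value depends on the prior count and is no measure of size, and each difference shares shEmpty libraries with the baseline comparison.

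For DNMT TKO minus WT, the positive differences at genes were those of *Snx20* (2.94) and *Pdzk1* (2.70). Both genes fell in WT and changed little in DNMT TKO. At integrants they were those of an MMERVK10C copy at chr14:62099448-62103165 (7.56) and an IAPEz copy at chr4:68621832-68628928 (7.00). Neither copy had reads in DNMT TKO shEmpty. The negative differences at genes were those of *Cyp4a12b* (-4.67, no reads in WT shEmpty) and *Gm14443* (-4.62). At integrants they were those of an MMERVK9C copy at chr10:8271342-8273745 (-5.95, no reads in WT shEmpty) and an RLTR4_Mm copy in an intron of *Camk2b* at chr11:5905656-5911518 (-4.34). This RLTR4_Mm copy went from 0.0555, 0.320 and 0.212 to 1.52, 2.64 and 2.61 CPM in WT but from 7.72, 9.98 and 9.60 to 3.65, 5.41 and 5.04 CPM in DNMT TKO.

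For TET TKO minus WT, the positive differences at genes were those of *Zfp353* (4.34) and *Gm6804* (3.79). At integrants they were those of the same MMERVK10C copy (6.38) and an L1_Mus1 copy at chr6:73633414-73639438 (6.06). Neither copy had reads in TET TKO shEmpty. *Gm6804* reached 48.3 and 47.4 CPM in TET TKO shKap1, against 2.88, 3.81 and 4.32 CPM in WT shKap1. The negative differences at genes were those of *Cyp4a12b* (-5.21) and *Xkr9* (-4.95). At integrants they were those of the same MMERVK9C copy on chromosome 10 (-5.37) and an MMERVK9C copy at chr17:18115588-18118535 (-4.66, no reads in WT shEmpty). *Xkr9* rose in WT by 3.93 and stood at -1.01 in TET TKO.

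In libraries that entered no main comparison, the member with the most input reads, a (TTTC)n repeat at chr14:86133001-86133199, had 10146 reads in the library labelled as input of shKap1 replicate 2 and deposited under a name for the shEmpty input. Scaled like CPM to all reads over the region sets, this is 1735, above the 1603 and 72.7 of the shEmpty and shKap1 inputs of replicate 1. The library labelled as 5hmC of shKap1 replicate 2, named as the shKap1 input, had 1959 reads (315 when scaled). Those labelled as input and 5hmC of shEmpty replicate 2, named as the shEmpty and shKap1 5hmC libraries, had 89 and 40, and the 5hmC libraries of replicate 1 had 76 and 44.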

How the results depend on the processing

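The scale of the 5hmC values moved with the choice of reference. The members' median levels (-0.37 in shEmpty, -0.18 in shKap1) became 0.91 and 0.71 and their change -0.16 when scaled to H3K4me3 regions (7.39% rising 2-fold), and -0.066, -0.24 and -0.14 without the largest region (7.66%). With a pseudocount of 5 reads the shEmpty level was -0.42 and 13.3% rose 2-fold, and with at least 30 input reads 15.1% did. Replicate 2 read by its labels gave levels of 0.095 and -0.065 and a change of -0.18. The differences were 0.86 from regions with KAP1 and -0.074 from KAP1-independent regions, and 5.36% rose 2-fold. Read by its deposited names, the levels were -0.55 and -0.39, the change 0.18 and the difference from regions with KAP1 -0.86. Apart from the input filter, the change by name is the change by label with its sign turned, so the opposite signs were fixed in advance. Requiring 25% reciprocal overlap to remove a region gave a shKap1 level of -0.032, a change of 0.34, differences of -0.50 and 0.16, and 18% rising. Members at least 10 kb from KAP1 gave a shEmpty level of -0.24, a change of 0.10, differences of -0.71 and -0.082, and 10.99%. Without chromosomes 6 and 8 the shKap1 level was -0.13, the change 0.28, the difference from regions with KAP1 -0.53 and the share 17.9%. Members with no integrant on a KAP1 region changed by 0.15, with differences of -0.66 and -0.028, and 13.3% rose. The cause was not tested.

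Shares of integrants called depended on the filter, which changes how many are tested. With no filter beyond 1 read (4722 tested), 14.5% rose and 0.36% fell in WT, 17.9% and 0.233% in DNMT TKO, and 15.2% and 0.212% in TET TKO, against 1.80% and 0.212%, 2.19% and 0.0904%, and 2.29% and 0.0815% of all integrants, so that falls stood above the background where the filter of 16 reads put them below it. Effect differences were 2.202% and 0.932% (all integrants 0.205% and 0.124%), and shEmpty differences 6.42% and 3.03% (1.24% and 0.489%), for DNMT TKO and TET TKO. With at least 100 reads (850 tested), 61.6% rose and 2.24% fell in WT (25.4% and 4.67% of all integrants), 1.18% fell in TET TKO (2.30%), effect differences were 11.4% and 5.53% (5.28% and 2.62%), and shEmpty differences 30.9% and 17.6% (20.3% and 10.4%). Members at least 10 kb from KAP1 gave rises of 24.1% in WT and 26.6% in TET TKO. DESeq2 called the TET TKO effect difference at 41 of 466 integrants (8.80%, all integrants 6.02%). Without a fold threshold, 38.95% of nearest genes rose and 13.7% fell in WT, 34.6% and 10.53% in DNMT TKO, and 28.1% and 9.80% in TET TKO, against 22.99% and 22.7%, 19.7% and 15.6%, and 15.3% and 15.1% of all genes. Effect differences were 22.5% and 13.2% (all genes 18.4% and 9.69%), and shEmpty differences 46.7% and 32.9% (43.6% and 27.2%).

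Leaving out 1 library moved 3 results by over 1.5 times. The effect difference of TET TKO ranged from 2.00% to 4.16% of integrants (2.00% and 2.16% without TET TKO shEmpty replicate 1 or 2), the shEmpty difference of TET TKO from 6.23% to 11.2% (6.63% and 6.23% without them), and falls in TET TKO from 0.426% to 0.825% (lowest without TET TKO shKap1 replicate 1). With the replicate block, the counts were 0.95 to 1.16 times those without it, for example 769 integrants and 364 nearest genes rising in WT, against 777 and 360.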
